A study of Mus musculus with 6 samples.

Results

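Perivascular macrophages are the resident macrophages of the brain's border, lying between the vessel wall and the tissue. In mouse hypothalamus dissociated to single cells and profiled by Drop-seq, they were taken as the cells that passed a gate on named transcripts, and 87 of 9449 cells that passed quality filters met it, which is 0.921%. A cell had to hold at least 300 genes and at most 20% mitochondrial UMIs (unique molecular identifiers, which count captured transcripts once each). It then needed at least 2 UMIs summed over Mrc1, Pf4, F13a1, Cd163, Lyve1 and Ms4a7, at least 1 UMI over C1qa, C1qb, C1qc and Csf1r, and at most 1 UMI over the endothelial genes Cldn5 and Flt1 and the neuronal genes Snap25 and Syt1. The libraries came from C57BL/6J mice aged 8 weeks, 3 labelled IDOL KO and 3 labelled WT. IDOL, encoded by Mylip, is a ubiquitin ligase that marks lipoprotein receptors for degradation, and the labels give neither the deleted part of the gene nor the cells in which it was deleted. The gate held 62 IDOL KO cells, with 18, 14 and 30 in KO1, KO2 and KO3, and 25 WT cells, with 10, 9 and 6 in WT1, WT2 and WT3.

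Perivascular macrophages derive largely from embryonic progenitors that seed the brain's borders, and they share the receptor CSF1R and complement C1q with microglia, the macrophages of the tissue itself. They are known for scavenging from fluid that drains along vessels, for presenting antigen, and for standing near the barrier where leukocytes enter. The hypothalamus includes the median eminence, where vessels are leaky and such macrophages are numerous.

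The whole series held 13994 barcodes. Passing cells numbered 1488, 1890 and 1953 in the IDOL KO libraries and 1904, 1047 and 1167 in the WT libraries. Barcodes shared between libraries numbered 3, and none of them met the gate. The gated cells of a library held between 4920 and 21220 UMIs together, so that 1 UMI was worth 47.1 to 203 CPM, the count scaled to a common total for every library. Median depth per gated cell was 696 ± 130.4 UMIs in IDOL KO libraries and 768 ± 31 UMIs in WT libraries (SD, n = 3 each; exact permutation p = 0.5). A count of 0 in a library allows up to 3 UMIs, which is 141 to 609.8 CPM depending on the library. The labels leave it unsaid if the libraries are separate animals, so p-values measure the spread between libraries, which may be technical. Libraries were prepared over 2 days with the groups mixed, and the day of each library is not labelled.

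Some gated cells carried transcripts of other cell types, and the libraries differed in them. WT1 stood apart. Its summed red blood cell genes reached 41195 CPM, against 0 to 94.3 CPM in the other libraries, and nearly all of these UMIs lay in 1 cell in which they made up 42.8% of the UMIs. Its summed oligodendrocyte genes reached 34059.6 CPM, against 841 to 10973 CPM elsewhere. In KO1, fibroblast genes summed to 7163 CPM and mural genes to 2403 CPM. Of the 87 cells, 4 held 5% or more of their UMIs in lists of other cell types, 1 in KO1, 1 in KO3 and 2 in WT1. Endothelial and neuronal genes were low in part because the gate removed them: Cldn5 had no UMI and Flt1 had 2. Genes of monocytes and neutrophils summed to 0 to 518 CPM, and lymphocyte genes to 0 to 257 CPM. Scrublet, a doublet caller, marked 2 of the 87 cells.

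The label of the targeted gene was hard to check in so few cells. Mylip had 0, 0 and 0 UMIs in IDOL KO perivascular macrophages and 1, 0 and 0 UMIs in WT perivascular macrophages, so no direction could be read from it. In the more numerous microglia, Mylip had 0 UMIs in each IDOL KO library and 7, 11 and 12 UMIs in WT1, WT2 and WT3. No library went against its label.

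The genes of the gate describe the cells and carry no test against other cell types, since they chose them. Pf4, a chemokine stored in platelets and made by border macrophages, was seen in 87.4% of the 87 cells. Mrc1, the mannose receptor that takes up glycoproteins, was seen in 83.9%. F13a1, a transglutaminase subunit of the clotting cascade, was seen in 59.8%. Cd163, which clears haemoglobin bound to haptoglobin, and Ms4a7, a tetraspanin-like protein of border macrophages, were each seen in 47.1%. Lyve1, a hyaluronan receptor, was seen in 40.2%. The order of these shares is not a comparison of transcript levels between genes.

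Mrc1 had 56, 60 and 54 UMIs in KO1, KO2 and KO3, and 42, 25 and 16 in WT1, WT2 and WT3. Pf4 had 67, 50 and 101 UMIs in the IDOL KO libraries, and 29, 34 and 7 in the WT libraries. Both genes were found in every library. Mrc1 counts did not follow the number of cells, KO3 having the most cells and fewer Mrc1 UMIs than KO1 or KO2. Pf4 counts were highest in KO3 and lowest in WT3, the libraries with the most and the fewest gated cells. As CPM, Mrc1 averaged 3453 ± 1464 CPM in IDOL KO libraries and 3583 ± 378 CPM in WT libraries, while Pf4 averaged 4087 ± 848 CPM in IDOL KO libraries and 2982 ± 1681 CPM in WT libraries (SD, n = 3 each). Lyve1 was uneven between WT libraries: it had 21, 9 and 29 UMIs in the IDOL KO libraries, and 11, 19 and 0 in the WT libraries. The 6 cells of WT3 held none, which still allows a share of cells with a Lyve1 UMI of up to 45.9% (95% exact Clopper-Pearson interval, counting error only). Leaving Lyve1 out of the gate kept the same count of 87 cells.

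Free RNA in droplets gives UMIs of a gene to cells that do not express it. The other 8979 passing cells met neither this gate nor that of microglia, and since they were set apart in part by having few gate UMIs, their shares describe them and are no independent measure of background. There, each gate gene was seen in 0.0780% to 0.234% of cells at a median of 912 UMIs per cell, while the gated cells had a median of 722 UMIs. In 383 microglia gated on P2ry12, Tmem119, Siglech, Cx3cr1 and Gpr34 (at least 2 UMIs), Mrc1 had 5 UMIs and Pf4 had 1 UMI. F13a1, Cd163, Lyve1 and Ms4a7 had none in microglia. These low counts are largely fixed by the rule, since the 13 cells that met both gates were placed with the perivascular macrophages. A median of 4 of the 6 gate genes was seen per perivascular macrophage, and 44 cells held 4 or more of them.

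A minority of the gated cells lay near the threshold. Just inside it, 7 cells had exactly 2 gate UMIs, 6 of them IDOL KO and 1 WT, and 10 cells had 3. Just outside it, 14 cells had 1 gate UMI, 9 IDOL KO and 5 WT, and 6 of those 14 also held at least 2 microglial gate UMIs. The remaining 70 gated cells had 4 UMIs or more. Most of the gated cells with 2 or 3 gate UMIs held a UMI of the MHC class II genes described below. Of the 87 cells, 13 also met the microglial gate and were kept with the perivascular macrophages.

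**Figure D1:**
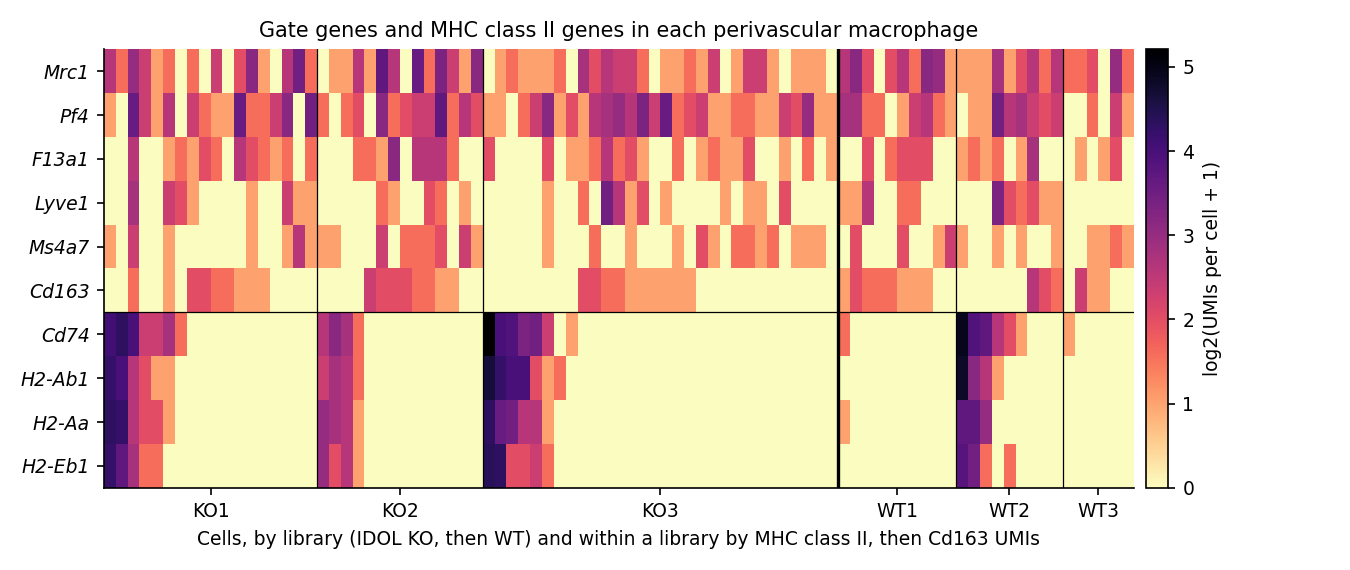
Each column is 1 of the 87 perivascular macrophages and each row a gene, with colour giving log2(UMIs per cell + 1). Libraries run KO1 to KO3 and then WT1 to WT3, split by a heavy line, and within a library cells are ordered by their UMIs of the 4 MHC class II genes and then of Cd163. The 41 cells with Cd163 and the 27 cells with MHC class II transcripts share only 3 cells, and WT3 has no Lyve1 UMI.

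The RefSeq promoters (250 bases before to 50 bases after the start, GRCm38.p6) are shown for 3 gate genes and for Cbr2, since these are genes that mark the cells together and carry the motif of PU.1, the transcription factor of the myeloid lineage. Capitals mark matches to GAGGAAG on either strand, so that a match on the other strand reads CTTCCTC. Mrc1 lies at chr2:14229164-14229463 on the plus strand, Pf4 at chr5:90772185-90772484 on the plus strand, F13a1 at chr13:37050195-37050494 on the minus strand, and Cbr2, a carbonyl reductase of border macrophages that was not part of the gate, at chr11:120731972-120732271 on the minus strand.
Mrc1: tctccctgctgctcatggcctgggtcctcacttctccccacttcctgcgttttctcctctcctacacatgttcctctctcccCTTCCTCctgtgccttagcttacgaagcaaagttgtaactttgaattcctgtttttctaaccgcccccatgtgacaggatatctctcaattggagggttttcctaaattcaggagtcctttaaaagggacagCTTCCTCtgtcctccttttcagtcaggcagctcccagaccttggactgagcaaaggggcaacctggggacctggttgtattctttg
Pf4: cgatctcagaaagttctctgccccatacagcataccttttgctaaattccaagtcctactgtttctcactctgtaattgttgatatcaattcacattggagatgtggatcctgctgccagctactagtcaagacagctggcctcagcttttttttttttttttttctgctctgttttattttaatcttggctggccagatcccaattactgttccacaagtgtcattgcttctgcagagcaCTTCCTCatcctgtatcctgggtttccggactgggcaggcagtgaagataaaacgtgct
F13a1: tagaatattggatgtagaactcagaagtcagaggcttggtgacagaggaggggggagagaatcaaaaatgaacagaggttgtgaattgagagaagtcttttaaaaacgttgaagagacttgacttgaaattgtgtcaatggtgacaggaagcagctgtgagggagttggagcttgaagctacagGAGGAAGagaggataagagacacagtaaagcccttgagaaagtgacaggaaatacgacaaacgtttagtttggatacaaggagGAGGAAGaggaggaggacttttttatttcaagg
Cbr2: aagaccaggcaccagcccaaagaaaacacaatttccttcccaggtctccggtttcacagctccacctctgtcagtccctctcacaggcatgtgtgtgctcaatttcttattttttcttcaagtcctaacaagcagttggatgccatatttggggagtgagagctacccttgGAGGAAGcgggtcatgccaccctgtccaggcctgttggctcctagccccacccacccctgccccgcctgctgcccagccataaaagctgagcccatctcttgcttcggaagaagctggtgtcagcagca
Of the 6 gate genes, 5 had an entry and 3 held a match, with 2 matches in Mrc1, 1 in Pf4 and 2 in F13a1. Among 27025 mouse promoters of this length, 13.5% held a match. The share was 19.2% for genes higher in perivascular macrophages than in microglia (78 promoters), 25.3% for genes lower in them (87 promoters) and 15.7% for all genes tested (496 promoters). The share was thus larger among the lower genes than among the higher ones. In all, 3 motifs were searched on both strands. The MAF half-site TGCTGAC had no match in the 5 gate gene promoters, and was in 1.28% of the higher, 1.15% of the lower and 4.58% of all promoters. The AP-1 motif TGANTCA also had no match in the gate genes, and was in 12.8% of the higher, 9.20% of the lower and 7.93% of all promoters. The promoters printed were chosen because they held the PU.1 motif, so their matches show nothing about how common it is. A match describes letters in this window and is not evidence of binding.

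Perivascular macrophages were higher than microglia of the same libraries in border macrophage and MHC class II genes and in Apoe, and lower in the homeostatic genes of microglia. The summed MHC class II genes went the other way in WT1. Scavenger receptors, chemokines, lysosomal genes and transcription factors held genes called in both directions. The comparison asked which genes outside both gates separate the 2 kinds of brain macrophage. UMIs were summed per library and cell type and tested with edgeR's quasi-likelihood test, with the library as a block and the 19 genes of the gates left out. Of 665 genes tested, 105 were higher in perivascular macrophages (15.8%) and 116 were lower (17.4%) at an adjusted p under 0.05, 221 in all (33.2%). Log2 differences below are perivascular macrophages over microglia with their standard error, and CPM are means over libraries (SD, n = 6). Both sets of cells were chosen on transcripts counted in these same cells, so genes that accompany a gate gene from cell to cell are favoured among the calls. A gene at 0 in microglia passes the filter on low counts only through its level in perivascular macrophages, so the counts for each list are descriptions.

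Border macrophage genes outside the gate were higher. Of 23 listed genes in the table, 16 passed the filter and were called higher, and the others had too few UMIs to be tested. Cbr2, which reduces carbonyl compounds, had 13, 13 and 25 UMIs in KO1, KO2 and KO3, and 9, 1 and 4 in WT1, WT2 and WT3, while microglia had 0 UMIs in all 6 libraries. Against a floor of 3 UMIs over all microglia, Cbr2 was at least 80.0-fold higher. Igf1, the growth factor, was at least 43.1-fold higher by the same floor, and Folr2, a folate receptor, at least 30.8-fold higher. Maf, a transcription factor of tissue macrophages, averaged 2183 ± 397 CPM in perivascular macrophages and 689 ± 102 CPM in microglia, a log2 difference of 1.51 ± 0.21 (edgeR adjusted p = 0.000113). Ms4a6c was 3.62 ± 0.43 higher and Tgfbi, a matrix protein induced by TGF-beta, 4.28 ± 0.58 higher on the log2 scale. Among the 16, the calls of Ednrb and Ninj1 were lost without KO1 or without KO3, that of Ednrb also without WT1, and that of Wwp1 without KO2 or without WT1.

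Scavenger and endocytic receptors included genes in both directions. Of 13 listed genes in the table, 6 were tested, 4 were called higher and 1 lower. Stab1, a scavenger receptor for modified lipoproteins and matrix fragments, had 10, 27 and 38 UMIs in the IDOL KO libraries and 15, 5 and 8 in the WT libraries. Its level was 1392 ± 694 CPM in perivascular macrophages and 225 ± 62.2 CPM in microglia, a log2 difference of 2.41 ± 0.33 (edgeR adjusted p = 0.000104). Cd36, which binds oxidised LDL and fatty acids, had 28 UMIs in perivascular macrophages and 0 in microglia, at least 34.4-fold higher. The C-type lectin Clec10a was at least 23.4-fold higher and the collectin Colec12 at least 20.9-fold higher, also with 0 UMIs in microglia. Mertk, a receptor for dying cells, went the other way, at 350.5 ± 162 CPM in perivascular macrophages and 799 ± 202 CPM in microglia (log2 difference -1.46 ± 0.34). Gas6, a ligand of Mertk, was higher, at 557 ± 256 CPM in perivascular macrophages and 71.9 ± 39.2 CPM in microglia.

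The chemokines divided, with monocyte and neutrophil attractants higher in perivascular macrophages and Ccl4, Tnf and Il1a lower. Of 20 listed chemokines and cytokines in the table, 11 were tested, 6 were called higher and 3 lower. Ccl7, which draws monocytes through CCR2, had 80, 60 and 57 UMIs in the IDOL KO libraries and 11, 39 and 2 in the WT libraries, while microglia had 10 UMIs in all. It averaged 3092 ± 2089 CPM in perivascular macrophages and 38.6 ± 25.5 CPM in microglia, a log2 difference of 5.91 ± 0.41 (edgeR adjusted p = 3.32e-07). Cxcl2, a neutrophil attractant, was at 3619 ± 2118 CPM in perivascular macrophages and 224 ± 149 CPM in microglia, 3.85 ± 0.29 higher on the log2 scale. Ccl2 was 2.74 ± 0.32 higher and Ccl12 1.42 ± 0.28 higher. Il1a, an alarm cytokine, had 3 UMIs in perivascular macrophages and 232 in microglia, so that the pooled level was 0.0477 times that of microglia (95% counting interval 0.00977 to 0.141). Ccl4 was at 1026 ± 467 CPM in perivascular macrophages and 3357 ± 1031 CPM in microglia, and Tnf at 55.5 ± 76.4 CPM in perivascular macrophages and 366 ± 106 CPM in microglia. In WT3, with 6 cells, Ccl2 had 0 UMIs.

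Complement, Fc receptor and antimicrobial genes were among those higher. Of 11 Fc receptor and complement genes in the table, 6 were tested and 4 were called higher. Fcgrt, which recycles immunoglobulin G and albumin, averaged 504 ± 157 CPM in perivascular macrophages and 43.5 ± 13.7 CPM in microglia (log2 difference 3.27 ± 0.45). The inhibitory Fc receptor Fcgr2b was 1.92 ± 0.44 higher and Cfp, a stabiliser of the complement convertase, 5.43 ± 0.88 higher. Lyz2, lysozyme, was at 10049.8 ± 2421 CPM in perivascular macrophages and 667 ± 529 CPM in microglia, 4.05 ± 0.42 higher on the log2 scale (edgeR adjusted p = 1.41e-05). Cybb, the catalytic subunit of the phagocyte oxidase, was 4.38 ± 0.50 higher, and Cp, the copper ferroxidase ceruloplasmin, had 61 UMIs in perivascular macrophages and 3 in microglia. Vcam1, an adhesion molecule for leukocytes, had 44 UMIs in perivascular macrophages and 1 in microglia, a ratio of 162 with a counting interval of 27.7 to 6558.

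Lipid genes were led by Apoe, the apolipoprotein that carries cholesterol between brain cells. It was seen in all 87 cells, with 452, 462 and 756 UMIs in KO1, KO2 and KO3, and 354, 348 and 245 in WT1, WT2 and WT3. Its level was 38200.1 ± 10568 CPM in perivascular macrophages and 3823 ± 3499 CPM in microglia, a log2 difference of 3.63 ± 0.42 (edgeR adjusted p = 3.07e-05). The levels of the 2 cell types did not overlap, the lowest being 21301 CPM in perivascular macrophages (KO1) and the highest 8441 CPM in microglia (WT1). Of 21 listed IDOL targets, LXR targets and lipid genes in the table, 3 were tested; Pltp, which moves phospholipids between lipoproteins, was also called higher, at 345 ± 202 CPM in perivascular macrophages and 24.4 ± 34.5 CPM in microglia. Receptors that IDOL targets were hardly seen. Lrp8 had 0 UMIs, and Vldlr had 0, 1 and 0 UMIs in IDOL KO perivascular macrophages and 2, 0 and 0 in WT perivascular macrophages.

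Lysosomal genes divided evenly, with 16 of 18 tested, 4 called higher and 4 lower. Ctsc, cathepsin C, was higher at 1647 ± 701 CPM in perivascular macrophages and 452 ± 134 CPM in microglia, and Ctsb, cathepsin B, at 4865 ± 1289 CPM in perivascular macrophages and 2430.2 ± 664 CPM in microglia. Cathepsin D (Ctsd) was lower, at 1574 ± 779.8 CPM in perivascular macrophages and 5519.6 ± 1280.3 CPM in microglia. Ctsl, Ctsz and Psap were lower too, while Cd63 and Lamp1 were higher. Leaving out KO1 or KO3 ended the calls of Cd63, Lamp1 and Ctsz, leaving out KO2 those of Cd63, Lamp1 and Psap, leaving out WT1 that of Lamp1, and leaving out WT2 that of Ctsz.

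Transcription factors also divided: of 16 listed, 11 were tested, and Maf, Klf2, Klf4 and Klf6 were called higher while 4 were called lower, Irf8, Mef2a and Id2 among them. Mef2a, a factor bound at microglial enhancers, had a log2 difference of -1.29 ± 0.32. The calls of Klf2 and Klf6 were lost without any 1 of the IDOL KO libraries, that of Klf6 also without WT2, that of Irf8 without KO2 or WT2, and that of Id2 without KO2, KO3, WT2 or WT3.

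Genes of microglia were lower in perivascular macrophages. Of 16 listed genes, 9 were tested and called lower, and the gate genes of microglia were left out. Cst3, the protease inhibitor cystatin C, was at 8339 ± 2194 CPM in perivascular macrophages and 46452.5 ± 8812 CPM in microglia (log2 difference -2.66 ± 0.17, edgeR adjusted p = 3.29e-07). Selplg, a selectin ligand, had 5 UMIs in perivascular macrophages and 518 in microglia. Tgfbr1, the receptor subunit for TGF-beta, had a log2 difference of -3.68 ± 0.42 and Trem2, a lipid-sensing receptor, one of -1.83 ± 0.28. Genes that all brain macrophages share were closer: of 15 listed, 13 were tested, Lyz2 was higher, Ctss, Laptm5, Itgam and Lgmn were lower, and 8 were not called.

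**Figure D2:**
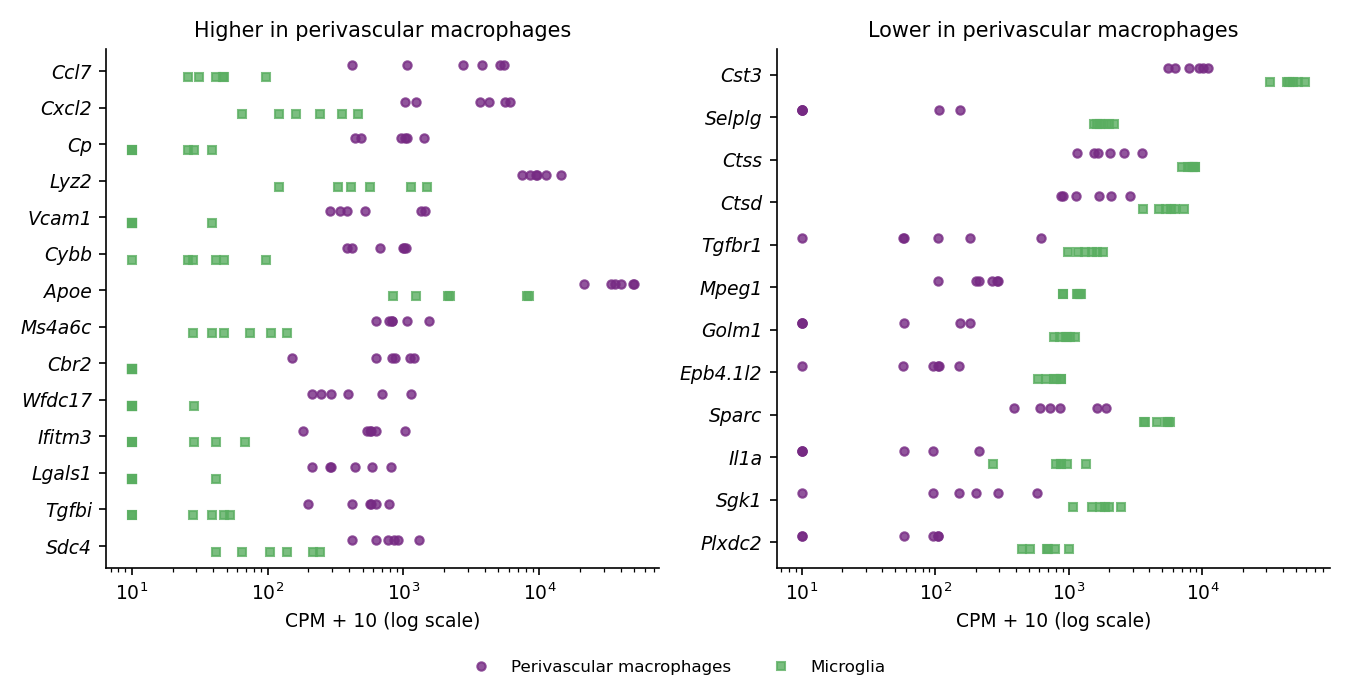
CPM plus 10 on a log scale for genes with the smallest p among those higher (left panel, 14 genes) and lower (right panel, 12 genes) in perivascular macrophages with 1 sign in all 6 libraries. Purple circles are perivascular macrophages and green squares microglia, 1 point per library; for Apoe, Cst3 and Lyz2 the 2 cell types form separate groups of points, and points at 10 are libraries with no UMI.

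Immediate early and heat shock genes, which also rise during tissue dissociation, were lower in perivascular macrophages than in microglia in 8 of 15 tested and higher in none. Summed over 17 genes they came to 26183 ± 8558 CPM in perivascular macrophages and 37694 ± 4671 CPM in microglia. Egr1 was at 1319 ± 631 CPM in perivascular macrophages and 3468 ± 780.0 CPM in microglia, and Nfkbia at 2968 ± 1110.1 CPM in perivascular macrophages and 6689.7 ± 1519 CPM in microglia. The calls of Ier2, Zfp36 and Atf3 were each lost without WT1, without WT2 or without WT3, those of Ier2 and Atf3 also without KO2, and that of Jun without WT2. The effect of dissociation on these values was not tested.

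Genes of fibroblasts were among those called higher, 4 of 4 tested (Dcn, Col1a2, Igf2 and Apod), as was the mural gene Vtn. These rested on few cells. Dcn, a matrix proteoglycan, had 35 UMIs in 6 perivascular macrophages and 1 in microglia, and 1 KO1 cell held 19 of them. Col1a2, a collagen chain, had 33 UMIs in 6 cells, of which 1 cell held 26, and Igf2 had 53 UMIs in 6 cells, of which 1 cell held 36. That KO1 cell had under 5% of its UMIs in lists of other cell types. Without KO1, Dcn, Col1a2 and Vtn had too few UMIs to be tested, while Igf2 and Apod were still called. The call of Apod was lost with robust settings and with at least 500 genes per cell, and that of Igf2 when cells with any endothelial or neuronal UMI were left out. Their part in the other differences was not tested. Oligodendrocyte genes, 6 of which were tested, gave no call in either direction.

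Of the Toll-like receptors and their partners, 2 were tested, 1 called higher and 1 lower. Cd14, the co-receptor for bacterial lipopolysaccharide, was called higher, at 1053 ± 412 CPM in perivascular macrophages and 525 ± 118 CPM in microglia (log2 difference 0.89 ± 0.25), a call lost without KO1 or without KO3. Ly86, a partner of a Toll-like receptor relative, was called lower, at 678 ± 628 CPM in perivascular macrophages and 1004 ± 633 CPM in microglia (log2 difference -0.89 ± 0.27, edgeR adjusted p = 0.0186), a call lost without KO2, KO3, WT1 or WT3. Of 15 MHC class I and interferon response genes, 6 were tested and Ifitm2 and Bst2 were called higher, the call of Bst2 being lost without WT1. Iron and haem genes gave no call in the 2 of 12 that were tested.

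Antigen presentation genes were carried by a subset of the cells. MHC class II molecules show peptides to CD4 T cells, and Cd74 is their chaperone. For H2-Aa, H2-Ab1, H2-Eb1 and Cd74 together, 7, 4 and 8 cells held a UMI in KO1, KO2 and KO3, and 1, 6 and 1 cells in WT1, WT2 and WT3. The cells had 198, 73 and 269 of these UMIs in the IDOL KO libraries, and 3, 163 and 1 in the WT libraries. WT2 thus held nearly all MHC class II transcripts of the WT group. The share of cells with a UMI was 31.4 ± 6.58% in IDOL KO libraries and 31.1 ± 31.0% in WT libraries (SD, n = 3 each; exact permutation p = 1). All 4 genes were called higher in perivascular macrophages than in microglia, Cd74 by 3.44 ± 0.60 on the log2 scale (edgeR adjusted p = 0.000566). Not every library went this way. Summed over 10 listed MHC class II genes, WT1 had 285 CPM in perivascular macrophages (3 UMIs) and 1057 CPM in microglia (56 UMIs). WT3 had 610 CPM in perivascular macrophages (3 UMIs) and 498 CPM in microglia. The calls of Cd74, H2-Aa and H2-Ab1 were lost when cells needed 500 genes or more, and with robust settings those of H2-Aa and H2-Ab1, with adjusted p up to 0.285 and 0.115 by edgeR. In microglia, 3.66% of cells held a UMI of the 4 genes, and in the other passing cells 1.10%, while 31.0% of perivascular macrophages did.

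Cd163 and MHC class II transcripts were rarely seen in the same cell. Of the 87 cells, 38 had Cd163 without MHC class II, 24 had MHC class II without Cd163, 3 had both and 22 had neither. A dividing line of at least 2 MHC class II UMIs put 24 cells (18 IDOL KO and 6 WT) on the MHC class II side, and the other 63 cells (44 IDOL KO and 19 WT) below it. Cd163 had 4 UMIs in the 24 cells and 76 in the 63 cells, and Stab1 had 9 UMIs in the 24 cells and 94 in the 63 cells. Cbr2 had 9 UMIs in the 24 cells and 56 in the 63 cells. The 63 cells hold 55078 UMIs in all and the 24 cells 21337, so the 3 genes were lower in the 24 cells also per UMI, at 187 CPM of Cd163 in the 24 cells and 1380 CPM in the 63 cells. Other border and gate genes were mixed. Folr2 was at 328 CPM in the 24 cells and 327 CPM in the 63 cells. Lyve1 was at 1265 CPM in the 24 cells and 1126 CPM in the 63 cells. Clec10a, with 3 UMIs in the 24 cells and 16 in the 63, was lower in the 24, at 141 and 290 CPM. Ms4a7 was at 516 CPM in the 24 cells and 1126 CPM in the 63, and F13a1 at 1031 and 1888 CPM. Ccr2, the receptor for CCL2 and CCL7 that blood monocytes carry, had 14 UMIs in 8 of the 24 cells and none in the 63. Of the other monocyte genes, Plac8 had 0 UMIs in the 24 cells and 1 in the 63, and Ly6c2 and Vcan had none in any of the 87 cells. Fn1, the last gene of the monocyte and neutrophil list in the table, held the rest of that list's UMIs. It was not divided between the 24 and the 63 cells. Lyz2 was at 12982 CPM in the 24 cells and 8098 CPM in the 63 cells, and Mrc1 at 2390.2 CPM in the 24 cells and 3668 CPM in the 63 cells. The dendritic cell genes Flt3, Itgax and Ccr7 had no UMI in any of the 87 cells, and the 1 other dendritic cell gene in the table had 1 UMI. This division was drawn from the same cells and carries no test, and the 24 cells had a median of 742.5 UMIs each, against 720.0 in the 63 cells. Many of the 24 cells had passed the gate with only 2 or 3 gate UMIs. A WT2 cell with 81 MHC class II UMIs had 3 gate UMIs, and a KO3 cell with 63 had 2. By contrast, a KO1 cell with 31 MHC class II UMIs had 35 gate UMIs. Most of the 8 cells with Ccr2 had 2 or 3 gate UMIs. Cd163, F13a1, Ms4a7 and Mrc1 are gate genes, so their counts in cells that barely passed are limited by the gate.

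Cells with a Lyve1 UMI, 35 in number, were set beside the other 52 in the same way, again with no test. Folr2 had 22 UMIs in the 35 cells and 3 in the 52, Stab1 had 67 UMIs in the 35 cells and 36 in the 52, and Cbr2 had 42 UMIs in the 35 cells and 23 in the 52. H2-Aa had 8 UMIs in the 35 cells and 143 in the 52. The 35 cells had a median of 818 UMIs each and 31625 in all, and the 52 cells 685.5 and 44790. Per UMI, Folr2 was at 696 CPM in the 35 cells and 67.0 CPM in the 52, and Stab1 at 2119 and 804 CPM. Cbr2 was at 1328 and 514 CPM, and H2-Aa at 253 and 3193 CPM. The part of depth in this division was not tested. Cells with both a Lyve1 UMI and an MHC class II UMI numbered 8. Ccr2 was again seen in 8 cells, all without Lyve1.

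The share of perivascular macrophages was compared between the genotypes. They made up 1.21%, 0.741% and 1.54% of passing cells in KO1, KO2 and KO3, and 0.525%, 0.860% and 0.514% in WT1, WT2 and WT3. KO1 and KO3 lay above all WT libraries, and KO2 lay among them, so the groups overlapped. They no longer overlapped with at least 500 genes per cell, at 0.767% in IDOL KO libraries and 0.354% in WT libraries. Nor did they overlap without cells holding at least 2 microglial gate UMIs, at 0.991% in IDOL KO libraries and 0.509% in WT libraries. The exact permutation p was 0.1 for both settings, the smallest possible, and the second setting was not planned in advance. The mean share was 1.16 ± 0.400% in IDOL KO libraries and 0.633 ± 0.196% in WT libraries (SD, n = 3 each), a difference of 0.529 percentage points that the test did not separate from the spread between libraries (two-sided exact permutation p = 0.2; 0.1 is the smallest p that 3 against 3 libraries allow). Counting error was large: the exact 95% interval was 0.406% to 1.24% in KO2 and 0.394% to 1.63% in WT2.

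The same was asked of gated brain macrophages, perivascular macrophages and microglia together. Perivascular macrophages were 26.5%, 16.1% and 27.3% of gated macrophages in KO1, KO2 and KO3, and 13.3%, 17.0% and 7.79% in WT1, WT2 and WT3. The mean was 23.3 ± 6.24% in IDOL KO libraries and 12.7 ± 4.63% in WT libraries, a difference of 10.6 percentage points (SD, n = 3 each; exact permutation p = 0.2). KO2 again lay within the WT range. With a minimum of 500 genes per cell, the groups no longer overlapped (exact permutation p = 0.1, the smallest possible). The means were then 41.6 ± 20.9% in IDOL KO libraries and 13.7 ± 5.05% in WT libraries. KO1 rested on 9 perivascular macrophages and 5 microglia there. Overlap was also absent with no endothelial or neuronal UMI, at 23.2% in IDOL KO and 12.9% in WT libraries. The same held without perivascular macrophages holding at least 2 microglial gate UMIs and without microglia holding any UMI of the macrophage gate. That setting, not planned in advance, gave 20.8% in IDOL KO and 10.8% in WT libraries. A larger share in dissociated tissue and a larger yield of these cells on dissociation cannot be told apart.

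**Figure D3:**
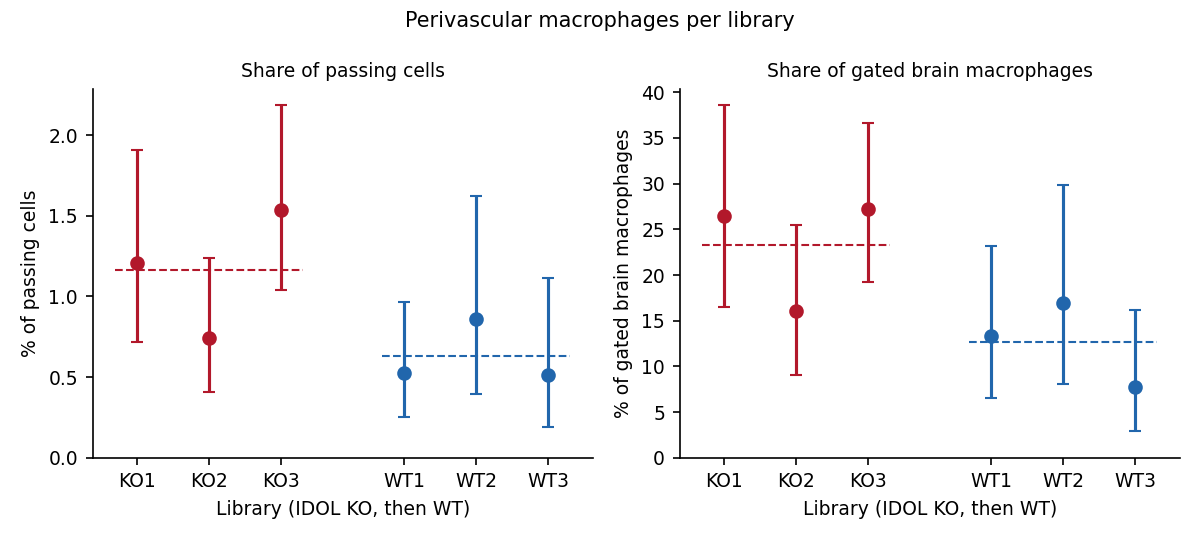
Share of perivascular macrophages in each library, in percent of passing cells (left panel) and of gated brain macrophages (right panel). Points are libraries, red for IDOL KO and blue for WT, with exact 95% binomial intervals that cover counting error; dashed lines are group means, 1.16% and 0.633% on the left and 23.3% and 12.7% on the right, and KO2 lies within the WT range in both panels.

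Within perivascular macrophages, no gene passed the threshold between IDOL KO and WT. Of 116 genes with enough UMIs to be tested by edgeR's quasi-likelihood test, 0 were called (0%), 4 had an unadjusted p under 0.05 (3.45%), all higher in IDOL KO, and DESeq2 called 0 as well. The 116 included 10 genes of the gate, which had chosen the cells. On simulated data of the same size, recovery was counted only among changed genes that passed the filter on low counts. The test recovered 0 of 19 2-fold (0%), 3 of 13 4-fold (23.1%) and 13 of 13 8-fold changes (100%). In this simulation none of the 19 2-fold changes was thus detected, and recovery was not split by the UMI count of the gene. Every simulated gene had the same dispersion, a measure of spread between libraries, which real genes need not share. For 10 of the 116 genes (8.62%) the 3 IDOL KO libraries did not overlap the 3 WT libraries, 9 of them higher in IDOL KO (7.76%) and 1 lower (0.862%).

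Atf3, a stress-induced transcription factor, gave the smallest p. It had 61, 51 and 68 UMIs in KO1, KO2 and KO3, and 13, 7 and 3 in WT1, WT2 and WT3. Scaled to depth this was 2875, 4372 and 3244 CPM in IDOL KO libraries and 1237, 981 and 610 CPM in WT libraries. All 3 IDOL KO libraries lay above all 3 WT libraries. A UMI of Atf3 was seen in 53 of the 87 cells. The log2 difference was 1.73 ± 0.37 (edgeR adjusted p = 0.207), and over all alternatives it lay between 1.36 and 3.17 with an adjusted p of 0.0361 to 0.797, below the threshold only with no filter on low counts. Fosb, a partner of JUN in AP-1, had 34, 30 and 51 UMIs in the IDOL KO libraries and 9, 8 and 5 in the WT libraries. It averaged 2202 ± 524 CPM in IDOL KO libraries and 998 ± 133 CPM in WT libraries, without overlap (log2 difference 1.05 ± 0.30, edgeR adjusted p = 0.469). H3f3b, a gene of the replacement histone H3.3, had 59, 51 and 69 UMIs in the IDOL KO libraries and 18, 13 and 6 in the WT libraries (log2 difference 1.02 ± 0.31, edgeR adjusted p = 0.469). Rgs2, which damps G protein signals, and Ddx5, an RNA helicase, also did not overlap, with log2 differences of 0.98 ± 0.38 and 0.71 ± 0.32.

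Over the list of 17 immediate early and heat shock genes, 11 were tested, 10 had a positive and 1 a negative log2 difference, and none was called, while 56.0% of all genes tested had a positive one. Their median was 0.37, beside 0.06 for all genes tested, and 2 of the 11 had an unadjusted p under 0.05. The summed level was 21630.5, 34545 and 36689 CPM in KO1, KO2 and KO3, and 13509.7, 24096 and 26626 CPM in WT1, WT2 and WT3, so KO1 lay within the WT range. Fos, the AP-1 subunit, had 5306 ± 1454 CPM in IDOL KO libraries and 3965 ± 2086 CPM in WT libraries.

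The lipid and presentation genes gave no call either. Apoe was at 21301, 39602 and 36069 CPM in IDOL KO libraries, and 33679, 48753 and 49797 CPM in WT libraries, a log2 difference of -0.53 ± 0.24 (edgeR adjusted p = 0.834). Cp had 20, 5 and 10 UMIs in the IDOL KO libraries and 11, 10 and 5 in the WT libraries. As CPM its groups did not overlap, at 616 ± 284 CPM in IDOL KO libraries and 1155 ± 214 CPM in WT libraries (log2 difference -0.88 ± 0.51). Canx, a chaperone of the endoplasmic reticulum, was at 694 ± 216 CPM in IDOL KO libraries and 1150 ± 303 CPM in WT libraries. Cd74 was at 3052 ± 1224 CPM in IDOL KO libraries and 3120 ± 5063 CPM in WT libraries. The WT value rested on WT2: without that library, 4 genes were called higher in IDOL KO, H2-Aa, H2-Ab1, H2-Eb1 and Cd74.

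Ly86 (MD-1), which partners the Toll-like receptor relative CD180, had too few UMIs for the filter. It had 3, 2 and 8 UMIs in IDOL KO perivascular macrophages and 5, 12 and 6 in WT perivascular macrophages, or 231 ± 131 CPM in IDOL KO libraries and 1125 ± 608 CPM in WT libraries (SD, n = 3 each). The libraries did not overlap (two-sided exact permutation p = 0.1, the smallest possible). In microglia of the same libraries Ly86 was 1 of 4 genes called lower in IDOL KO (0.505% of 792 tested), with a log2 difference of -1.87 (edgeR adjusted p = 0.00178). Oligodendrocyte genes in the same microglia summed to 1540.2, 1532 and 2450.4 CPM in IDOL KO libraries and 9895, 6680.1 and 11624 CPM in WT libraries, without overlap, and their part in the Ly86 difference was not tested. The difference between the 2 cell types in this genotype difference was -0.21 ± 0.56 on the log2 scale by edgeR, smaller than its own standard error. Ly86 (chr13:37345208-37419036) and the targeted gene Mylip (chr13:45389742-45412022) lie on the same chromosome. Any part of this position in the Ly86 difference was not tested.

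**Figure D4:**
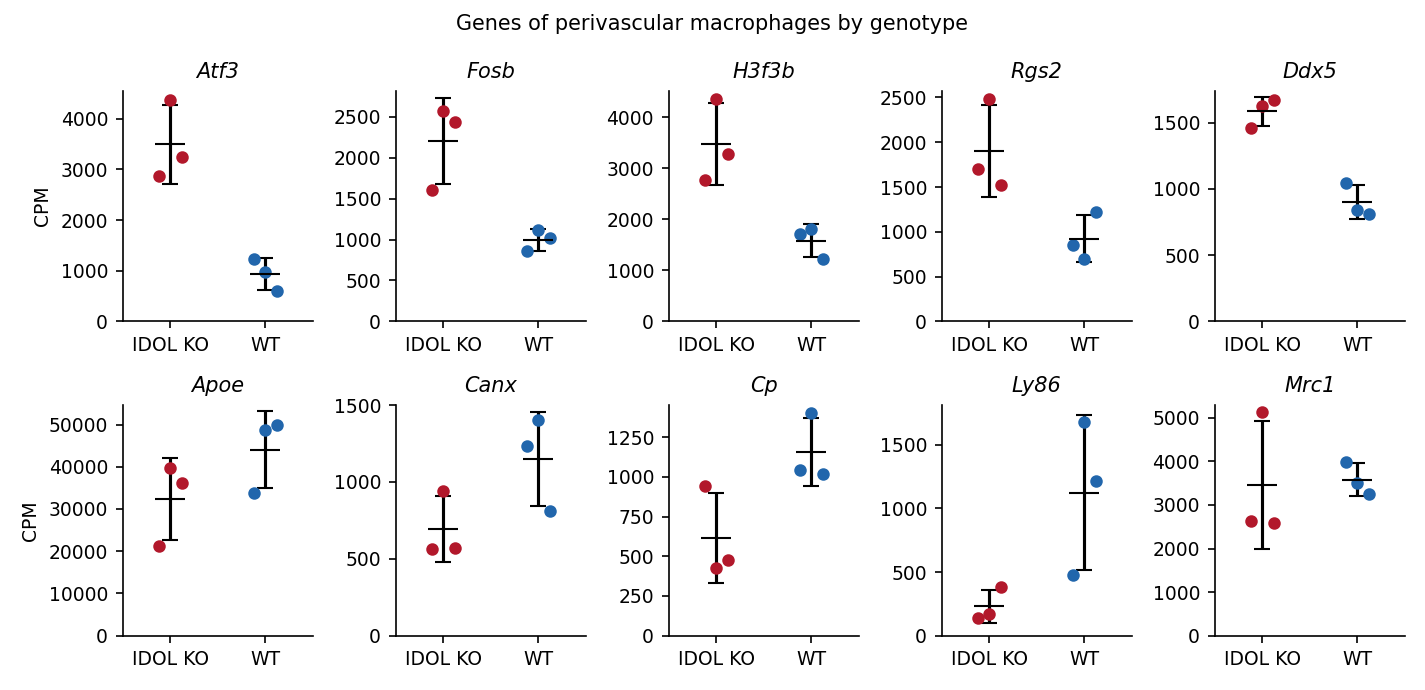
CPM in perivascular macrophages of the 3 IDOL KO libraries (red) and the 3 WT libraries (blue) for 10 genes, with the mean and SD as black bars. The libraries do not overlap for Atf3, Fosb, H3f3b, Rgs2 and Ddx5, which are higher in IDOL KO, nor for Cp and Ly86, which are lower, while those of Apoe, Canx and the gate gene Mrc1 overlap; no gene passed the adjusted threshold.

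Whether genotype acted differently in perivascular macrophages than in microglia was tested as the product of genotype and cell type over 665 genes. Only Hbb-bt, a beta globin gene, was called (0.150%), and its UMIs in perivascular macrophages lay in the WT1 cell rich in red blood cell transcripts described above. In microglia, red blood cell genes summed to 96.3, 6129 and 10538 CPM in IDOL KO libraries and 75.5, 846 and 73.8 CPM in WT libraries. Without WT1, without KO3, or without cells of either type rich in other markers, Hbb-bt had too few UMIs to be tested. At an unadjusted p under 0.05 there were 35 genes (5.26%). Atf3 had a difference of 1.71 ± 0.45 on the log2 scale (edgeR adjusted p = 0.374): it did not pass the threshold, and microglia had 3059 to 4022 CPM in IDOL KO libraries and 2565 to 3821 CPM in WT libraries. All 15 tested immediate early and heat shock genes had a positive value, against 51.7% of all genes tested, with a median of 0.66 beside 0.04 for all genes tested, and 4 of them had an unadjusted p under 0.05.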

How the data were processed

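Drop-seq UMI counts were the authors' own, deposited as raw counts per gene and cell barcode in 1 table of 18204 genes, not normalized. Per the submitters' processing notes, bcl2fastq and STAR 2.5.0c were used with mm10 and GRCm38; the counting program and its handling of near-identical genes (H2, Hba, Ifitm, Ms4a6 and Ccl genes, H3f3b) are not given in the sources used here, so counts of those genes are uncertain. The members and gene lists were chosen with earlier results of these data known.

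Counts were summed per library and cell type and scaled to CPM, a common total for every library. Genes were tested with edgeR 4.0.16 (filterByExpr, TMM, quasi-likelihood F-test, Benjamini-Hochberg adjustment) in R 4.3.3, with DESeq2 1.42.0 as an alternative, and the tests were checked on simulated data. The genotype test used the 6 libraries with no block, and the test against microglia used the library as a block. Shares were tested by exact permutation, with exact Clopper-Pearson 95% intervals. Cells were handled in scanpy 1.11.5, and doublets called by Scrublet (116, 1.23% of passing cells) were kept in the main result. Gene locations came from GENCODE M21 and promoters from RefSeq.

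Named genes against microglia were the 14 with the smallest p on each side with 1 sign in every library, and from each list the 4 with the highest mean CPM and any called member. Between genotypes they were the 6 with the smallest p on each side, Mylip, Ly86, Apoe, Vldlr, Lrp8, the gate genes and the 3 highest of each list. Some genes that these rules name are not reported here. Cells divided by MHC class II or Lyve1, and Ccr2 in them, were chosen after their values were seen.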

Additional observations from a re-analysis of the deposited data

Results flagged for a closer look

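The IDOL KO over WT difference of Hbb-bt, a beta globin gene, differed between perivascular macrophages and microglia by -14.29 on the log2 scale (edgeR adjusted p = 0.0107), which the test of the difference itself picked out. In perivascular macrophages its UMIs lay in 1 WT1 cell, which held 56 of them, and the other libraries had 0. In microglia, red blood cell genes summed to 96.3, 6129 and 10538 CPM in IDOL KO libraries and 75.5, 846 and 73.8 CPM in WT libraries. Hbb-bt had too few UMIs to be tested without WT1, without KO3, or without cells of either type rich in other markers.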

How the results depend on the processing

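Between genotypes in perivascular macrophages, 0 genes were called in the main result and 0 to 4 with 1 library left out, the 4 being Cd74, H2-Aa, H2-Ab1 and H2-Eb1 without WT2; with no filter on low counts 6 were called, at a median log2 difference of 0.97 over all genes, and DESeq2 called 0. Against microglia, 221 genes were called, 163 to 204 with 1 library left out, 378 with no filter (24.6% of them higher, against 47.5%; median -0.73), 50 with at least 500 genes per cell and 107 with no library block, of which 95 were among the 221. For the genotype difference between the cell types, 1 gene was called, 0 to 4 with 1 library left out, 9 with no filter (median 0.75), 3 with doublets removed, and 0 with DESeq2, robust settings, at least 500 genes per cell, no cells rich in other markers or no library block. The causes were not tested. Same-numbered libraries did not deviate together (r = 0.123, -0.0026 and 0.032), and with the replicate block 0 genes were called between genotypes and the paired exact permutation p of both shares was 0.5. The share differences ran from 0.342 to 0.740 percentage points of passing cells and 8.12 to 14.2 of gated macrophages with 1 library left out. Depth, 4920 to 21220 UMIs per library, limits every genotype comparison.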
